A study of Homo sapiens with 4 samples.

Results

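A set of 10 regulators and outputs of the integrated stress response was listed around the transcription factor ATF4, and the arrays gave a named probe set for 7 of them: ATF4, DDIT3, TRIB3, SESN2, ATF3, DDIT4 and STC2. The other 3, CHAC1, CEBPB and CEBPG, had 0 named probe sets here and were not analysed. The members were taken by symbol from 14884 named genes, with the probe set of the highest mean standing for a gene. Each of the 7 had 1 probe set, and all 7 passed the filter on low values, a mean log2 intensity of at least 4.97 (the midpoint of the 14884 gene means).

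Human myeloma lines, ARP-1 and MM.1S, were each studied as MIF-KO and as CTR-KO cells. Myeloma is a tumour of antibody-secreting plasma cells. MIF-KO cells carried a lentiviral hairpin RNA against MIF, a secreted cytokine, and CTR-KO cells carried a control hairpin. Cells of both conditions were sorted as GFP+, so the controls had passed through infection and sorting too. A hairpin lowers a transcript without removing the gene, and KO is kept here only as the label. RNA of each line and condition was read on 1 array, 4 in all, with no replicate within a line.

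The integrated stress response begins with kinases that phosphorylate the translation factor eIF2, each kinase answering to its own stress, such as unfolded protein in the endoplasmic reticulum or a lack of amino acids. General translation then slows while the ATF4 transcript is translated more, so ATF4 is controlled largely at the level of protein, which arrays do not measure. ATF4 protein pairs with other bZIP factors on composite C/EBP-ATF elements and raises genes of amino acid supply, of growth restraint and, with DDIT3, of cell death. Plasma cells and myeloma cells make and secrete large amounts of immunoglobulin, and their survival is known to lean on this response and on the unfolded protein response.

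The targeted gene followed the titles in both lines. MIF had an intensity of 541 on the MIF-KO array and 1092 on the CTR-KO array of ARP-1, and of 405 and 1012 on the MIF-KO and CTR-KO arrays of MM.1S. For ARP-1, the description field of each array gives the other condition than its title and genotype label. The titles were used, and the regulators with these arrays exchanged are described in a paragraph of their own. Of the 8 plasma cell markers that were named on the arrays, 7 passed the filter, and the summed intensity of all 8 lay between 5829 and 6872 on the 4 arrays. Most of that sum was IRF4, a plasma cell transcription factor, between 3579 and 4379.8. The surface markers SDC1 and CD38 differed the other way from the regulators: SDC1 had an intensity of 184 in MIF-KO and 471 in CTR-KO ARP-1, and of 471 in MIF-KO and 337 in CTR-KO MM.1S. CD38 had 41.8 in MIF-KO and 113 in CTR-KO ARP-1, and 56.2 in MIF-KO and 41.0 in CTR-KO MM.1S. The plasma cell markers had no common direction. MZB1 differed as most regulators did, with 774 in MIF-KO and 566 in CTR-KO ARP-1, and 399 and 615 in MM.1S. IRF4 and XBP1 had the same signs as MZB1, with small differences in MM.1S. SLAMF7 had 122 in MIF-KO and 120 in CTR-KO ARP-1, and 80.3 and 62.1 in MM.1S. The part of these markers in the results was not tested. Markers of B cells, myeloid cells and stromal cells had 0 genes above the filter, those of T and NK cells 2 of 5, and those of epithelial cells 1 of 4. Median probe set intensities were between 13.1 and 13.3.

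**Figure D1:**
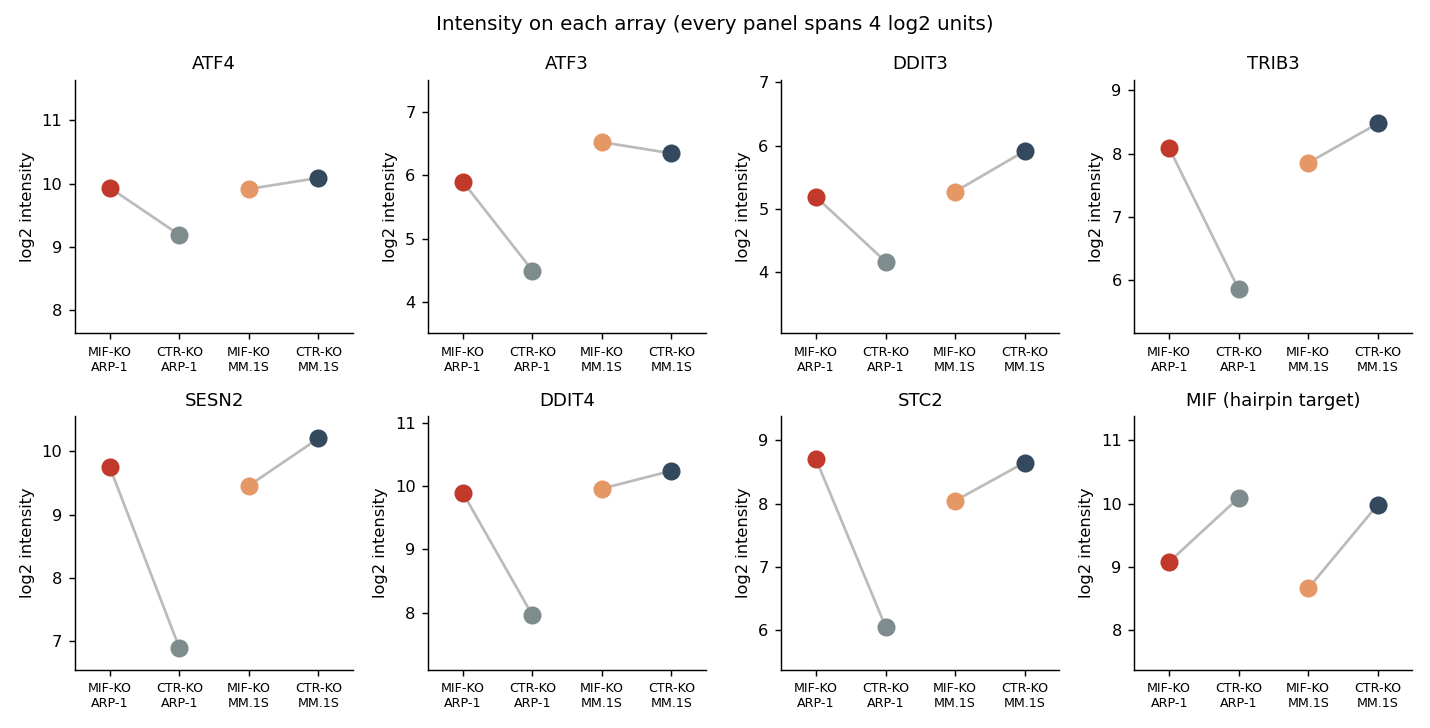
Log2 intensity (vertical axis) of the 7 regulators and of MIF on each of the 4 arrays (horizontal axis). Each point is 1 array, grey lines join the arrays of a line, and every panel spans 4 log2 units. CTR-KO ARP-1 is the lowest array for all 7 regulators, from 18.0 for DDIT3 to 585 for ATF4 on the linear scale, while for MIF the MIF-KO array is the lower one in each line.

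Of the 7 regulators, 6 (all but ATF3) differed in opposite directions in the lines. Opposite signs were common, in 5028 of all 7442 tested genes, so the signs alone do not set the regulators apart. In ARP-1, all 7 exceeded the CTR-KO array by at least 1.5-fold on the MIF-KO array, with a median log2 difference of 1.93, where 10.9% of the 7442 tested genes were that much higher in MIF-KO and their median was -0.03. In MM.1S, 4 of the 7 (DDIT3, TRIB3, SESN2 and STC2) were at least 1.5-fold lower in MIF-KO than in CTR-KO and 0 were higher, with a median of -0.61, against 2.89% of tested genes and a median of 0.04. These same 4 were thus past 1.5-fold upward in ARP-1 and downward in MM.1S, as 1.64% of tested genes were. The regulators were listed with earlier results of these data known, so the shares of all genes describe them and are no independent test. The MM.1S count was near the mark: DDIT3, TRIB3 and STC2 were 1.52-fold to 1.56-fold lower, the count was 2 (TRIB3 and SESN2) with a pseudocount of 16, and at 2-fold it was 0. On CTR-KO ARP-1, DDIT3 and ATF3 lay below the filter, which they passed through the other arrays, so the sizes of their ARP-1 differences are uncertain. The pairs of arrays are separate, but each difference rests on 1 array per condition and has no error or test of its own. In RNA from pools of sorted cells, more cells with a transcript and more transcript per cell cannot be told apart.

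Over both lines, no regulator passed the test for condition. The limma fit with line and condition as terms called 0 of the 7 and 0% of all tested genes at an adjusted p below 0.05. At an unadjusted limma p below 0.05 there were 29 of the 7442 tested genes and 0 of the 7. The error of that fit is the disagreement between the lines, which was large for these genes. The 0 calls thus do not show that the conditions were alike within a line. The largest mean difference was that of SESN2, at 1.05 (SE 0.86, 95% interval from -1.15 to 3.25, n = 2 lines, limma adjusted p = 0.99995). The smallest was that of DDIT3, at 0.19 (SE 0.42, 95% interval from -0.88 to 1.27, n = 2 lines, limma adjusted p = 0.99995).

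ATF4, the central factor, had the smallest difference of the 7 in ARP-1. Its probe set (16930299) had an intensity of 979.6 in MIF-KO ARP-1 and 585 in CTR-KO ARP-1, and of 967 in MIF-KO MM.1S and 1092 in CTR-KO MM.1S. CTR-KO ARP-1 stood below the other 3 arrays, which lay within 0.17 log2 units of each other. The log2 difference was 0.74 (ARP-1) and -0.17 (MM.1S), with a mean of 0.28 (SE 0.34, limma adjusted p = 0.99995). The ARP-1 differences of DDIT3, TRIB3, SESN2, ATF3, DDIT4 and STC2 ran from 1.02 to 2.85.

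ATF3, a bZIP factor induced by many stresses and a target of ATF4, was the only one of the 7 with the same sign in both lines. Its probe set (16677278) had an intensity of 59.5 in MIF-KO ARP-1 and 22.5 in CTR-KO ARP-1. In MM.1S it had 91.8 in MIF-KO and 81.3 in CTR-KO. Both MM.1S arrays lay above both ARP-1 arrays. On CTR-KO ARP-1, ATF3 was at a log2 intensity of 4.49, below the filter, which it passed through the other arrays. With a pseudocount of 16, its difference was 0.97 in ARP-1, and 1.34 between MM.1S and ARP-1 under the control hairpin. The log2 difference was 1.40 (ARP-1) and 0.18 (MM.1S), and the mean of 0.79 (SE 0.36, 95% interval from -0.13 to 1.71) had the lowest unadjusted limma p of the 7, 0.079, with an adjusted p of 0.99995.

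The composite C/EBP-ATF element was looked for in the promoter windows of all 10 listed genes, from 250 bases before to 50 after each RefSeq start (GRCh38.p14), because ATF4 is known to act through it. The letters TGATGNAA, searched on both strands, occurred in 3.62% of the 35116 windows of that table and in windows of 4.46% of its 27305 genes. Of the 10 listed genes, ATF3, CHAC1 and CEBPG had a match. ATF3 and CEBPG each also have a window without it. TGATGCAA, the best-known form, which the first motif includes, was in 0.866% of all windows (1.08% of genes) and in windows of CHAC1 and CEBPG. The matches are shown with 16 bases on either side, 5′ to 3′ on the gene's strand and with the element in capitals. That of CHAC1 reads on the opposite strand.
ATF3, chr1:212565200-212565239, plus strand: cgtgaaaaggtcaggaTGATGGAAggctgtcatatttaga
CHAC1, chr15:40953246-40953285, plus strand: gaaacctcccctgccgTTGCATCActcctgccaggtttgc
CEBPG, chr19:33374055-33374094, plus strand: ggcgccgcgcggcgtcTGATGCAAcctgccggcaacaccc
Counted from the start site, the match began at -191 in ATF3, at -209 in CHAC1 and at -42 in CEBPG. Of the 7 measured genes, 1 (ATF3) therefore held the element in a window. The cAMP response element TGACGTCA (1.85% of windows, 2.25% of genes) and its core TGACGT (7.98% and 9.64%) were found in 0 of the 10 genes. A match is only a run of letters, and known ATF4 elements can lie outside such windows.

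DDIT3, also called CHOP, is a bZIP partner that turns the response toward cell death. Its probe set (16766578) had an intensity of 36.5 in MIF-KO ARP-1 and 18.0 in CTR-KO ARP-1, and of 38.7 in MIF-KO MM.1S and 60.3 in CTR-KO MM.1S. CTR-KO MM.1S was highest and the MIF-KO arrays of the lines stood close together, 0.09 apart on the log2 scale. The log2 difference was 1.02 (ARP-1) and -0.64 (MM.1S). The value of 18.0 on CTR-KO ARP-1 was little above the median of all probe sets on that array, 13.1. It is a log2 intensity of 4.17, below the filter, which DDIT3 passed through the other arrays. The size of its difference in ARP-1 is thus uncertain. With a pseudocount of 16, the differences of DDIT3 were 0.63 and -0.48, the second no longer past 1.5-fold. Its promoter window, shown because it held the most motif matches of the 7, had CCAAT once on either strand and TGAGTCA, a site of AP-1 factors, once on the opposite strand, all in capitals.
DDIT3, chr12:57520465-57520764, minus strand: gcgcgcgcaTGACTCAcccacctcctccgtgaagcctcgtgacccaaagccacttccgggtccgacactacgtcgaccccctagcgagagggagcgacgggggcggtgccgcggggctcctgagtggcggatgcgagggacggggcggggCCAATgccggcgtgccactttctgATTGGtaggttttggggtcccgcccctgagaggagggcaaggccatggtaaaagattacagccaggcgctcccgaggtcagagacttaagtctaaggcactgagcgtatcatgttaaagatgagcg
CCAAT on either strand was in 34.6% of all windows, and TGAGTCA in 4.95%.

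TRIB3, a pseudokinase induced by ATF4 and DDIT3 that damps the response, had one of the larger differences. Its probe set (16910609) had an intensity of 272 in MIF-KO ARP-1 and 58.0 in CTR-KO ARP-1, and of 232 in MIF-KO MM.1S and 356 in CTR-KO MM.1S. CTR-KO ARP-1 stood well below the other 3 arrays, which spanned 0.62 log2 units. The log2 difference was 2.23 in ARP-1, 4.69-fold higher in MIF-KO, and -0.62 in MM.1S, 1.54-fold lower in MIF-KO. Their mean was 0.80 (SE 0.70, limma adjusted p = 0.99995). None of the motifs searched was in a promoter window of TRIB3.

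SESN2 and DDIT4 are inhibitors of mTORC1, a kinase complex that drives growth. SESN2 senses leucine and restrains mTORC1 when that amino acid is scarce. Its probe set (16661544) had an intensity of 858 in MIF-KO ARP-1 and 119 in CTR-KO ARP-1, and of 703 in MIF-KO MM.1S and 1179 in CTR-KO MM.1S. Its log2 difference of 2.85 in ARP-1, 7.20-fold, ranked 6 from the highest of the 7442 tested genes, and that of -0.75 in MM.1S, 1.68-fold lower, ranked 89 from the lowest. The promoter window of SESN2 is shown as that of the regulator with the widest difference, with 2 inverted CCAAT motifs in capitals, at -151 and -86.
SESN2, chr1:28259268-28259567, plus strand: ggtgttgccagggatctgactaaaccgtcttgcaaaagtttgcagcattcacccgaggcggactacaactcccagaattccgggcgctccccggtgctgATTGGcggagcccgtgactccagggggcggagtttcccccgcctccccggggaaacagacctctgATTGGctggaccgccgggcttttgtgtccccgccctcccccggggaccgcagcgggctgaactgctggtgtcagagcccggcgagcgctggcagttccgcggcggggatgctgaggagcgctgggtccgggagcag
DDIT4, also called REDD1, restrains mTORC1 through the TSC complex. Its probe set (16705961) had an intensity of 948 in MIF-KO ARP-1 and 249 in CTR-KO ARP-1. In MM.1S it had 996 in MIF-KO and 1209.8 in CTR-KO. The other 3 arrays lay within 0.35 log2 units, and CTR-KO ARP-1 was 1.93 below them. The log2 difference was 1.93 (ARP-1) and -0.28 (MM.1S), with a mean of 0.83 (SE 0.57, limma adjusted p = 0.99995).

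STC2, a secreted glycoprotein induced by ATF4, completed the measured genes. Its probe set (17002898) had an intensity of 415 in MIF-KO ARP-1 and 66.6 in CTR-KO ARP-1, and of 264 in MIF-KO MM.1S and 402 in CTR-KO MM.1S. MIF-KO ARP-1 was the highest array, unlike for ATF4, DDIT3, TRIB3, SESN2 and DDIT4, where CTR-KO MM.1S was highest. The log2 difference was 2.64 in ARP-1, 6.24-fold and rank 10 from the highest of 7442, and -0.61 in MM.1S, 1.52-fold lower. With a pseudocount of 16, the MM.1S difference of STC2 was -0.58, just short of 1.5-fold. The mean was 1.02 (SE 0.79, limma adjusted p = 0.99995). The promoter window of STC2, on the minus strand, held 1 inverted CCAAT, in capitals.
STC2, chr5:173328365-173328664, minus strand: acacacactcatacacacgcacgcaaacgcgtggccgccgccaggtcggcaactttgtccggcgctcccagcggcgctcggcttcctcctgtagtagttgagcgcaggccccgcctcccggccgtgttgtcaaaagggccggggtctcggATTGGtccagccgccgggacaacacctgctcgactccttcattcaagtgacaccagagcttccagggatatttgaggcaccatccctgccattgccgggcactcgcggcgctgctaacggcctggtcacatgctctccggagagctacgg
CCAAT on either strand was in windows of 5 of the 7 measured genes (ATF3, DDIT3, DDIT4, SESN2 and STC2), and in those of 39.7% of the 27305 genes of the table.

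**Figure D2:**
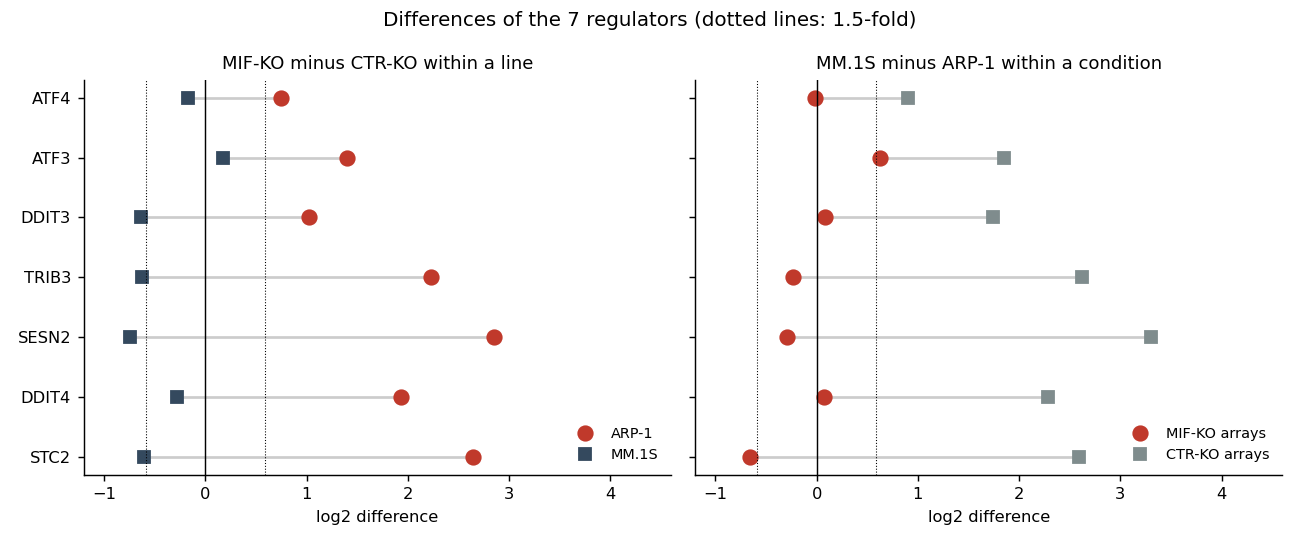
Log2 differences (horizontal axis) of the 7 regulators (vertical axis), with MIF-KO minus CTR-KO within each line on the left and MM.1S minus ARP-1 within each condition on the right. Each point is a difference between 2 arrays, with no error, and dotted lines mark 1.5-fold. The ARP-1 points run from 0.74 to 2.85 and the MM.1S points from -0.75 to 0.18, and on the right the CTR-KO points run from 0.90 to 3.31 and the MIF-KO points from -0.65 to 0.63.

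Between the lines, the regulators were apart under the control hairpin and near each other under the MIF hairpin. All 7 were at least 1.5-fold higher in CTR-KO MM.1S than in CTR-KO ARP-1, with a median log2 difference of 2.28, where 11.2% of tested genes were. SESN2 led, at 3.31, rank 3 from the highest of 7442, and ATF4 was least apart, at 0.90. The sizes for DDIT3 and ATF3 are uncertain, since both lay below the filter on CTR-KO ARP-1. Under the MIF hairpin the median was -0.02: ATF3 was at least 1.5-fold higher in MM.1S (0.63), as 8.22% of tested genes were, and STC2 at least 1.5-fold lower (-0.65), as 4.37% were. Over both conditions limma called 0 of the 7 for line, and 0% of tested genes. Of the 7, ATF3 alone had an unadjusted p below 0.05, at 0.018 (mean difference 1.24, SE 0.36, n = 2 conditions, limma adjusted p = 0.99986), as did 87 tested genes. These comparisons use the same 4 arrays as those within the lines, so they restate the levels from another side.

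CTR-KO ARP-1 stood apart from the other 3 arrays for these genes. It was the lowest of the 4 for 7 of 7 regulators, as it was for 2416 of all 7442 tested genes, 32.5%. After centring each gene on its own 4 arrays, the median regulator stood at 0.38 (MIF-KO) and -1.55 (CTR-KO) in ARP-1, and at 0.29 (MIF-KO) and 0.78 (CTR-KO) in MM.1S. Without that array, the condition could be compared in MM.1S alone, with the median of -0.61, and the lines under the MIF hairpin alone, with the median of -0.02. What sets that array apart was not tested, and with 1 array the culture, the hairpin and the hybridisation cannot be told apart.

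With the ARP-1 arrays exchanged, as their descriptions would have it, all 7 regulators were lower in MIF-KO cells of ARP-1, and in MM.1S all but ATF3 were lower too. Then 4 of the 7 passed the limma test, as 5.39% of tested genes did: SESN2 at -1.80 (SE 0.36, adjusted p = 0.025), TRIB3 at -1.43 (SE 0.31, adjusted p = 0.029), STC2 at -1.62 (SE 0.36, adjusted p = 0.033) and DDIT3 at -0.83 (SE 0.20, adjusted p = 0.040). DDIT4 at -1.11 (limma adjusted p = 0.061), ATF4 at -0.46 (limma adjusted p = 0.16) and ATF3 at -0.61 (limma adjusted p = 0.26) did not pass. At an unadjusted limma p below 0.05 there were then 1704 tested genes and 6 of the 7. DDIT3 and ATF3 lay below the filter on the array titled CTR-KO ARP-1 and passed it through the other arrays. The sizes of their differences, and the call of DDIT3, are thus uncertain. MIF itself would then be 1092 in MIF-KO and 541 in CTR-KO cells of ARP-1, against its direction in MM.1S. The exchange also turns the sign of every ARP-1 difference given for other genes and lists, by construction. Differences between the lines within a condition were not recomputed for it, but they change with the ARP-1 labels too. SESN2 would be 1179 (MM.1S) and 858 (ARP-1) in CTR-KO cells, and 703 and 119 in MIF-KO cells. For each of the 7, the wider gap between the lines would then be under the MIF hairpin.

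The counts of the lists stand beside the shares of all tested genes: at the 1.5-fold mark, 10.9% were higher in MIF-KO ARP-1 while 11.9% were lower, and 5.12% were higher in MIF-KO MM.1S while 2.89% were lower. The lists too were chosen with earlier results of these data known, so these counts are descriptive. All 4 eIF2 kinases were measured, and 0 of the 4 were 1.5-fold apart in either line, with medians of 0.22 (ARP-1) and 0.09 (MM.1S). EIF2AK3, or PERK, the kinase of the endoplasmic reticulum, had a log2 difference of -0.25 (ARP-1) and 0.22 (MM.1S). EIF2AK4, or GCN2, which senses uncharged tRNA, differed by 0.32 and -0.03. EIF2AK1, or HRI, which senses heme and mitochondrial stress, differed by 0.38 and -0.08, and EIF2AK2, or PKR, which senses double-stranded RNA, by 0.12 and 0.32. Kinase activity lies in phosphorylation, which arrays do not show.

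Of 9 listed activators and partners of the kinases, 5 were tested, and 3 of these (IMPACT, OMA1 and MAP3K20) were higher in MIF-KO ARP-1 by 1.5-fold or more. IMPACT, an inhibitor of GCN2, had an intensity of 247 in MIF-KO ARP-1 and 105 in CTR-KO ARP-1, a log2 difference of 1.23, and of 179 in MIF-KO and 252 in CTR-KO MM.1S, a difference of -0.49. OMA1, the protease that relays mitochondrial stress to HRI, differed by 0.62 and -0.15, and the ribotoxic stress kinase MAP3K20 by 0.61 and 0.05. GCN1, which activates GCN2 on ribosomes, differed by -0.47 and 0.27. Of the 15 genes listed for eIF2, eIF2B and the eIF2 phosphatase, EIF2D alone was tested, at 0.29 and -0.19. EIF2D is a separate initiation factor, so no subunit of those complexes was tested.

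Other targets of ATF4 had medians of the same signs as the regulators. Of 46 listed, 29 were tested, and in ARP-1, 18 of these were higher by at least 1.5-fold in MIF-KO and 0 lower, with a median of 0.89. In MM.1S, 3 of the 29 (KLHL24, CREBRF and TXNIP) were at least 1.5-fold lower and 0 higher. The median was -0.31, and 2.89% of all tested genes were that much lower. CTH, which makes cysteine, had an intensity of 948 in MIF-KO ARP-1 and 104 in CTR-KO ARP-1, and of 775 in MIF-KO MM.1S and 1087 in CTR-KO MM.1S. PHGDH, the first enzyme of serine synthesis, had log2 differences of 2.08 (ARP-1) and -0.42 (MM.1S). ASNS, which makes asparagine, differed by 2.21 and -0.20. TXNIP, which binds thioredoxin and restrains glucose uptake, differed by 2.55 and -1.01. CTR-KO ARP-1 was the lowest array for 24 of the 29, and for 32.5% of all tested genes.

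Of the cytosolic aminoacyl-tRNA synthetases, which charge tRNAs and include known ATF4 targets, 17 of 20 were tested. Of these, 7 (AARS1, CARS1, EPRS1, GARS1, MARS1, SARS1 and WARS1) were higher in MIF-KO ARP-1 by at least 1.5-fold and 2 (KARS1 and VARS1) lower, the second a share near that of all genes, 11.9%. The median was 0.51. SARS1, for serine, differed by 1.47 (ARP-1) and -0.33 (MM.1S), CARS1, for cysteine, by 1.31 and -0.01, and AARS1, for alanine, by 1.18 and -0.10. KARS1, for lysine, went the other way, at -0.66 and 0.53. In MM.1S the median was 0.03, with HARS1 at least 1.5-fold higher and 0 lower.

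Other bZIP factors that can pair with ATF4 or share its sites were mixed. Of 19 tested, 6 (ATF2, JUN, NFE2L1, JDP2, CREB3L2 and DBP) were higher in MIF-KO ARP-1 by at least 1.5-fold and FOSL1 lower, with a median of 0.27. In MM.1S, 5 (ATF2, JUN, JUND, NFE2L1 and DBP) were at least 1.5-fold lower and FOS higher, with a median of -0.25. JUN, a subunit of AP-1, had an intensity of 469 in MIF-KO ARP-1 and 168 in CTR-KO ARP-1, and of 215 in MIF-KO MM.1S and 593 in CTR-KO MM.1S. Its differences of 1.49 and -1.46 were of nearly equal size, unlike those of the 7 regulators, which were smaller in MM.1S. NFE2L1, which restores proteasomes, differed by 1.20 and -0.85, the clock output factor DBP by 0.78 and -1.11, and FOSL1, another AP-1 subunit, by -1.23 and 0.52.

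**Figure D3:**
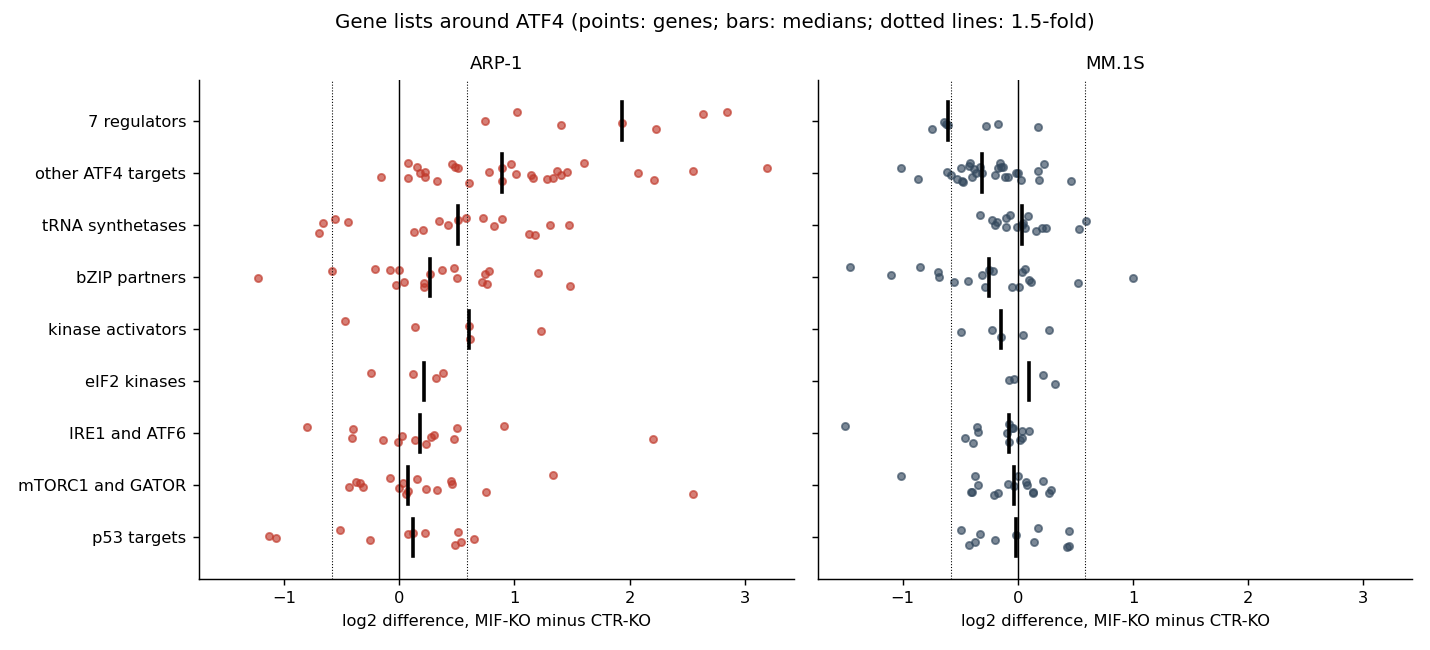
Log2 difference, MIF-KO minus CTR-KO (horizontal axis), of tested genes in each list (vertical axis), in ARP-1 on the left and MM.1S on the right. Each point is a gene, spread vertically at random, black bars are list medians and dotted lines mark 1.5-fold. The bars of the 7 regulators stand at 1.93 and -0.61 and those of other ATF4 targets at 0.89 and -0.31, while eIF2 kinases stand at 0.22 and 0.09.

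The other branches of the unfolded protein response had smaller medians. Of 14 tested genes of the IRE1 and ATF6 branches, ERN1 and SEL1L were higher in MIF-KO ARP-1 by at least 1.5-fold and SDF2L1 lower. These shares, 14.3% and 7.14%, are near those of all tested genes, 10.9% and 11.9%. The median in ARP-1 was 0.18. In MM.1S ERN1 was lower, 7.14% of the list against 2.89% of all tested genes, with a median of -0.08. ERN1, or IRE1, the sensor that splices XBP1, had an intensity of 528 in MIF-KO ARP-1 and 115 in CTR-KO ARP-1, and of 330 in MIF-KO MM.1S and 937 in CTR-KO MM.1S. SEL1L, which serves the degradation of misfolded protein, differed by 0.91 and -0.46. The chaperones SDF2L1 and HYOU1 differed by -0.80 and 0.03, and by 0.27 and -0.34.

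Among 17 tested partners of SESN2 and DDIT4 in the control of mTORC1, 3 (RRAGC, RRAGD and TXNIP, which is also on the ATF4 list) were higher in MIF-KO ARP-1 by at least 1.5-fold and TXNIP lower in MM.1S. These are 17.6% and 5.88% of the 17, against 10.9% and 2.89% of all tested genes. The medians of the partners were 0.08 and -0.04. RRAGD and RRAGC, Rag GTPases that bring mTORC1 to the lysosome, differed by 1.33 and -0.35, and by 0.76 and -0.41. SESN2 is also a target of p53, and 11 other p53 targets were tested. SESN1, BBC3 and PMAIP1 among them are also on the ATF4 list, so the lists are not separate. TP53I3 (0.65 in ARP-1, -0.42 in MM.1S) was higher in MIF-KO ARP-1 by at least 1.5-fold, AEN (-1.07 and 0.44) and TRIAP1 (-1.13 and -0.02) were lower, and 0 were apart by 1.5-fold in MM.1S. These ARP-1 counts, 1 and 2 of 11, are near the shares of all genes, 10.9% and 11.9%. The medians of the p53 targets were 0.12 and -0.02. In the limma fit, 0 genes of any of these lists were called for condition.

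Profiles were then compared among the regulators. Likeness was the Euclidean distance over the 4 arrays between log2 profiles centred on each gene's mean, and all tested genes had a median distance of 1.83 from the median profile of the 7. DDIT4 lay 0.17 from it, TRIB3 0.25, STC2 0.53, ATF3 0.62, DDIT3 0.69, SESN2 0.78 and ATF4 1.10. The profile was built from these genes, so these distances describe how they vary among themselves. The closest pair was TRIB3 and DDIT4, 0.32 apart, and the farthest ATF4 and SESN2, 1.88 apart. SESN2 was nearest to TRIB3 (0.55) and ATF4 to DDIT3 (0.61). This distance counts the size of the swings as well as their shape, and ATF4, the farthest from the median profile, had the smallest swings.

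The 6 other genes closest to the median profile were PHGDH at 0.17, HOXB9 at 0.27, NFIB and CLIC4 at 0.30 each, ASNS at 0.31 and CAPRIN2 at 0.32. PHGDH had an intensity of 515 in MIF-KO ARP-1 and 122 in CTR-KO ARP-1, and of 434 in MIF-KO MM.1S and 580.4 in CTR-KO MM.1S. HOXB9, a homeobox factor, differed by 1.67 (ARP-1) and -0.69 (MM.1S), and NFIB, a factor of the nuclear factor I family, by 1.79 and -0.17. CLIC4, an intracellular chloride channel protein, differed by 2.15 and -0.23, and the RNA-binding CAPRIN2 by 2.18 and -0.42. On CTR-KO ARP-1, NFIB had an intensity of 14.6, near the median of all probe sets.

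**Figure D4:**
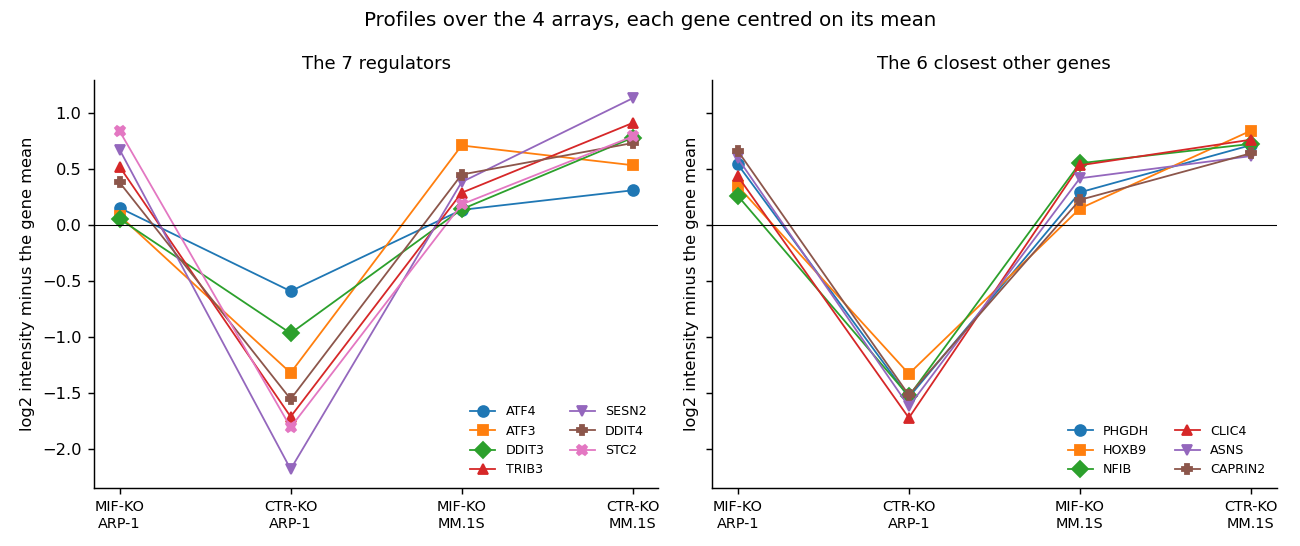
Log2 intensity minus the gene's mean (vertical axis) on each of the 4 arrays (horizontal axis) for the 7 regulators on the left and the 6 closest other genes on the right. Lines only link the points of a gene. All are lowest on CTR-KO ARP-1, where SESN2 stands at -2.18 and ATF4 at -0.59.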

How the data were processed

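RNA of 4 samples was labelled with a whole-transcript kit and hybridised, 1 array for each line and condition. The authors deposited linear intensities of 53617 probe sets, between 2.74 and 15935. The submitters' processing notes name RMA and limma, with no version or role. Other steps and the genome build: not given in the sources used here. Precision is limited by the number of arrays.

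By the platform annotation, 16098 probe sets had 1 symbol, 0 had several and 37519 had none. With current RefSeq names, 0 symbols changed. Log2 was taken with no pseudocount, and the 7442 genes in the upper part of the gene means, split at their median, were tested. Line and condition were fitted as terms with limma 3.58.1 under R 4.3.3 (eBayes with a trend), and p-values were Benjamini-Hochberg adjusted across the 7442 genes and read at 0.05. It leaves 1 residual degree of freedom, and the prior added 3.99. The cell line named in the labels pairs the arrays. Across genes, which are not independent replicates, the paired arrays' departures from the mean of their condition had r = -0.37. P-values measure only the spread between these samples, since no label tells of separate cultures. Differences within a line have 1 array per condition and no test, and 1.5-fold is the mark used there. The fit was tested on simulated data with the same change in both lines, so that test does not cover lines that differ in direction.

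Members and lists were chosen with earlier results of these data known. Named genes are the members, MIF, up to 4 genes per list by the sum of their absolute differences in both lines, and the 6 genes closest to the members' median profile. Genes outside that rule that are named in counts were chosen after their values were seen. Lists leave out the 7 members. Some genes stand on more than 1 list, among them TXNIP, EIF4EBP1, XBP1, ATF6, SESN1, BBC3 and PMAIP1. Of 14 listed amino acid transporters, 0 had a named probe set. Promoters are from RefSeq (GRCh38.p14), where all 10 listed genes matched.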

Additional observations from a re-analysis of the deposited data

Results flagged for a closer look

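Of the 7 regulators, 6 differed in opposite directions between MIF-KO and CTR-KO cells in the 2 lines. The difference in ARP-1 exceeded that in MM.1S by 3.60 for SESN2, 3.25 for STC2, 2.85 for TRIB3, 2.21 for DDIT4, 1.66 for DDIT3 and 0.92 for ATF4, on the log2 scale. The other, ATF3, was higher in both lines, by 1.40 (ARP-1) and 0.18 (MM.1S). These gaps between the lines were not tested, since 1 array per line and condition leaves no error for them. Of all 7442 tested genes, 5028 also had opposite signs in the lines, so the signs alone do not set the regulators apart.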

How the results depend on the processing

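The main dependence is on the ARP-1 arrays. With them exchanged, the median of the regulators was -1.93 in ARP-1 and -1.11 over both lines, the count at least 1.5-fold higher in ARP-1 was 0, and limma called 4 for condition. DDIT3, 1 of these 4, lay below the filter on the array titled CTR-KO ARP-1. The mean differences then turned to -0.46 (ATF4), -0.83 (DDIT3), -1.43 (TRIB3), -1.80 (SESN2), -0.61 (ATF3), -1.11 (DDIT4) and -1.62 (STC2). Leaving out 1 line at a time gave medians over the remaining line from -0.61 (without ARP-1) to 1.93 (without MM.1S), and values from -0.17 to 0.74 for ATF4, -0.64 to 1.02 for DDIT3, -0.62 to 2.23 for TRIB3, -0.75 to 2.85 for SESN2, -0.28 to 1.93 for DDIT4 and -0.61 to 2.64 for STC2. The median of MM.1S minus ARP-1, 1.18 over both conditions, ran from -0.018 (without CTR-KO ARP-1) to 2.28 (without MIF-KO ARP-1), alternatives chosen after seeing the data. A pseudocount of 16 gave 2 regulators (TRIB3 and SESN2) at least 1.5-fold lower in MM.1S, a median there of -0.48 and a line median of 0.93. At 2-fold, 0 were lower in MM.1S. The stricter filter kept 5 regulators, with a median of 2.23 in ARP-1. The fit with no replicate block, that is without the line term, called 0 of the 7 for condition, with adjusted p = 0.99994 in limma. Shifted medians, the mean of all probe sets, no filter and no trend each called 0 for condition and for line too. Each regulator had 1 probe set, so the mean of all probe sets could not change its values. Removing the filter left those values unchanged as well.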
